A study of Mus musculus with 10 samples.

Results

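Tubulins and the enzymes that modify them were read in nasal respiratory epithelium from mouse embryos that carry or lack the miR-34 and miR-449 microRNAs. The members are all genes whose only symbol on the array starts with Tuba, Tubb, Tubg, Tubd, Tube, Ttll, Agbl or Vash, with the probe set of highest mean over all 10 arrays read for each gene. This gave 41 of 22180 genes: 18 tubulin genes, 4 genes of the γ-tubulin complex, and 19 enzyme genes. The epithelium had been cut by laser capture from paraffin sections at E16.5, and each embryo gave 1 Affymetrix array. The 5 wild-type (WT) embryos were 4 females and 1 male (WT 3). The 5 triple-knockout (TKO) embryos, labelled miR-34a-/- miR-34b/c-/- together with miR-449a/b/c-/-, were 2 females and 3 males (TKO 2, TKO 4 and TKO 5). The labels describe no Cre driver and no treatment, and name neither a strain nor shared litters. Where nothing says that embryos came from separate litters, p-values measure only the spread between these embryos.

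The microRNAs removed in the TKO share a seed, the stretch that pairs with target transcripts, and are known for their abundance in multiciliated cells. The mature 5′ arms of 4 of them are shown because this shared seed, bases 2 to 8 in capitals, is what makes them a single family. They lie in GRCm38.p6 at chr4:150068473-150068494 (+ strand, miR-34a), chr9:51103610-51103632 (- strand, miR-34b), chr13:113037549-113037570 (+ strand, miR-449a) and chr13:113036008-113036028 (+ strand, miR-449c), and the sequences are RefSeq's.
mmu-miR-34a-5p: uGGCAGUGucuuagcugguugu
mmu-miR-34b-5p: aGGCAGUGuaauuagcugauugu
mmu-miR-449a-5p: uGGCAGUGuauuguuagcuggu
mmu-miR-449c-5p: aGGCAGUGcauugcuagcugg

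Microtubules are polymers of α- and β-tubulin dimers. γ-Tubulin in a ring complex starts new microtubules, and δ- and ε-tubulin are needed for the stable triplet microtubules of centrioles and basal bodies. The flexible carboxy-terminal tails of α- and β-tubulin are modified after assembly: TTLL enzymes add chains of glutamate or glycine, AGBL carboxypeptidases shorten glutamate chains, and vasohibins remove the last tyrosine of α-tubulin. These marks are dense on the axonemes of motile cilia, which multiciliated airway cells carry in large numbers. Tubulin genes also differ by tissue, with some isotypes abundant in neurons, platelets or testis.

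Every value given is log2, after the array normalization known as RMA. Arrays correlated with one another at 0.975 to 0.989 over all probe sets. Mir449c, read as a check of the genotype, lay at 6.80 to 7.56 in WT and 3.16 to 4.39 in TKO, and Mir449a at 6.86 to 7.56 and 5.06 to 5.76. In a separate fit over all 22180 genes without a filter, Mir449b fell by 0.33 on the log2 scale, to 11.67 to 12.08. In that fit Mir34a, Mir34b and Mir34c did not pass (limma adjusted p from 0.166 to 0.633). Mir34a and Mir34c lay at 3.03 to 3.75, below the filter used for the other genes. Mir34b lay at 5.61 to 5.98 in WT and 5.40 to 5.57 in TKO, without overlap. The mean of 11 tested respiratory epithelium markers was 9.45 to 9.56 on WT arrays and 9.41 to 9.56 on TKO arrays, and that of 12 multiciliated cell markers 9.78 to 9.93 and 9.96 to 10.18. In the comparison described next, 6 of those 12 had a positive and 6 a negative log2 change, with a median of 0.027. Genes were compared with limma, with sex in the model and Benjamini-Hochberg adjustment over 16635 genes, after leaving out genes with a mean below 4.58, the 25th percentile. A gene is said to have risen or fallen at an adjusted p below 0.05.

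Of these genes 6 passed, and they lay outside the β-tubulins, the γ-tubulin machinery, the glycylases and the AGBL enzymes. Of the 41 members 37 were tested. Of these, 5 rose: the α-tubulin gene Tuba1c, the centriolar tubulin genes Tube1 and Tubd1, the glutamylase gene Ttll6, and Ttll12. One fell, the vasohibin gene Vash2, and 31 did not pass. Over all genes tested 4.39% rose and 1.12% fell (5.51% in either direction), against 13.5% and 2.70% of the tested members. The median log2 change of the tested members was 0.12 and that of all genes -0.00052. At an unadjusted limma p below 0.05, 13 of the 37 tested members were higher and 3 lower. Of all 16635 genes tested, 2199 were higher and 1284 lower at that cut. The 6 genes that passed after adjustment lie on chromosomes 1, 10, 11 and 15, and the targeted loci on chromosomes 4, 9 and 13.

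Leaving out WT 3, the only WT male, reduced the 5 increases to 1, Ttll12, and leaving out TKO 3 reduced them to Ttll12 and Tuba1c. With no WT male left, the fit without WT 3 takes the genotype effect from females only. Its log2 changes were 0.42 for Tuba1c, 0.52 for Tube1, 0.37 for Tubd1, 0.44 for Ttll6 and 0.46 for Ttll12. In the main fit they were 0.53, 0.51, 0.42, 0.41 and 0.44. With a score of 6 non-epithelial marker lists as a covariate no member passed. The log2 changes in that fit were 0.54 for Tuba1c, 0.36 for Tube1, 0.31 for Tubd1, 0.27 for Ttll6, 0.35 for Ttll12 and -0.27 for Vash2, with limma adjusted p from 0.0852 to 0.417. The score itself ran from -0.38 to 0.38 in WT and from -0.43 to 0.18 in TKO. Of its lists, all 9 mesenchyme markers (median log2 change -0.41) and all 8 skeletal muscle markers (-0.66) had negative changes with sex in the model, 1 of each passing. By group means 3 of the mesenchyme markers, Col1a2 (0.15), Twist1 (0.09) and Pdgfrb (0.06), were higher in TKO. With sex in the model none of the 5 endothelium, 5 leukocyte, 4 glia and 6 cartilage markers tested passed. Changes were negative for 4 of the endothelium (median -0.32), 4 of the leukocyte (-0.37) and 3 of the glia markers (-0.12). For cartilage 2 were negative (median 0.03). The mean levels of mesenchyme markers overlapped between genotypes, at 7.29 to 8.33 in WT and 6.98 to 8.45 in TKO. Those of muscle markers did too, at 5.24 to 6.77 and 5.19 to 5.93.

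**Figure D1:**
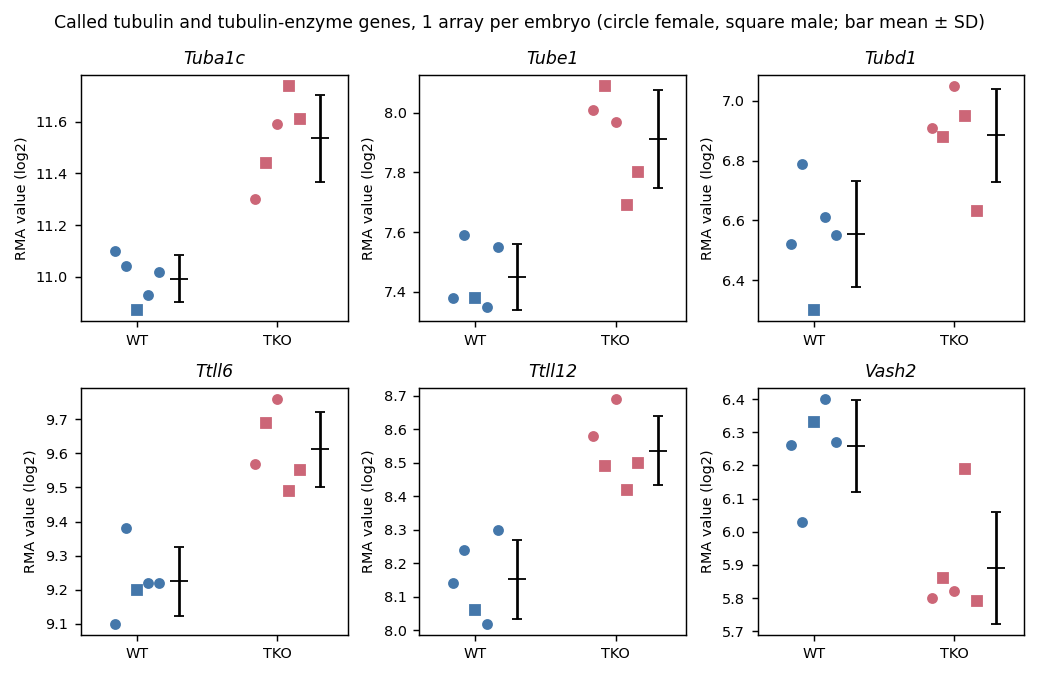
RMA values (log2, vertical axes do not start at 0) of the 6 genes that passed, 1 point per embryo, with WT in blue, TKO in red, circles for females, squares for males and bars for the mean ± SD (n = 5). Tuba1c, Tube1, Ttll6 and Ttll12 do not overlap between genotypes, while a TKO array of Tubd1 lies at 6.63 within the WT range and a TKO array of Vash2 at 6.19 within it.

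Among the α-tubulins, Tuba1c alone passed. It encodes a widely expressed α-tubulin and lies near Tuba1a and Tuba1b on chromosome 15. Tuba1c was 11.10, 11.04, 10.87, 10.93 and 11.02 in WT 1 to WT 5 and 11.30, 11.44, 11.59, 11.74 and 11.61 in TKO 1 to TKO 5. Every TKO array lay above every WT array, for a mean of 10.99 ± 0.091 (SD, n = 5) against 11.54 ± 0.17 (SD, n = 5). With sex in the model the gene rose 1.45-fold (log2 change 0.53, SE 0.090, limma adjusted p = 0.00678). A further probe set of Tuba1c lay at 8.73 to 9.03 in WT and 9.12 to 9.80 in TKO, also without overlap.

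Its neighbours differed less. Tuba1b, another widely expressed α-tubulin gene, was 12.08, 11.98, 12.21, 12.12 and 12.11 in WT and 12.21, 12.32, 12.33, 12.33 and 12.21 in TKO, a log2 change of 0.15 that did not pass (limma adjusted p = 0.169). Tuba1a, the main α-tubulin gene of developing neurons, was 11.77 ± 0.11 in WT and 11.75 ± 0.098 in TKO, with a 95% interval of the change from -0.20 to 0.10. A second Tuba1a probe set gave 11.12 in WT. The transcripts of these genes are much alike in their coding parts, so probes may read more than 1 of them. The placing of the probes was not analysed here. Tuba8, of which WT 2 and WT 4 were the highest arrays at 6.73 and 6.59, had a log2 change of -0.08 and an SE of 0.15.

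No β-tubulin gene passed. Tubb6, a broadly expressed isotype, was 6.69, 6.26, 7.18, 6.87 and 6.25 in WT and 6.89, 7.26, 7.30, 7.20 and 7.48 in TKO, with 4 of 5 TKO arrays above the highest WT array. Its log2 change of 0.42 had an SE of 0.16 and did not pass (limma adjusted p = 0.154). Tubb4b, the β-tubulin known for its place in cilia, was 7.46, 7.70, 7.57, 7.57 and 7.18 in WT and 7.37, 7.37, 7.59, 7.31 and 7.33 in TKO. Its ranges overlapped, and the 95% interval of its log2 change ran from -0.31 to 0.16. Tubb5, the main β-tubulin gene of dividing cells, was 11.09 ± 0.33 and 11.10 ± 0.16, with an interval from -0.19 to 0.42. Tubb4a, a neuronal and glial isotype, was near the filter at 4.76 ± 0.34 and 4.91 ± 0.37.

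The widest spread among members was that of Tubb3, the β-tubulin used as a marker of neurons, and it ran across embryos rather than between genotypes. Tubb3 and Tubb2b are described because of this spread, after their values were seen. Tubb3 was 8.43, 6.98, 5.44, 6.19 and 9.45 in WT 1 to WT 5 and 8.62, 5.42, 7.44, 6.12 and 5.71 in TKO 1 to TKO 5. WT 5, TKO 1 and WT 1 were high, and all 4 males were at or below 6.12. WT arrays averaged 7.30 ± 1.63 (SD, n = 5) and TKO arrays 6.66 ± 1.34 (SD, n = 5), a difference of -0.63. With sex in the model the estimate had the opposite sign, a log2 change of 0.28 with an interval from -0.92 to 1.48. Tubb2b, another β-tubulin of neurons, ran from 7.44 to 8.68 in WT and from 7.18 to 8.06 in TKO.

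The levels of these genes followed markers of neurons, a cell type that a capture of nasal epithelium may hold beside it. The mean of 11 tested neuron markers, Gap43, Stmn2, Dcx and Omp among them, was 6.84, 6.30, 5.49, 5.66 and 7.64 in WT 1 to WT 5 and 6.96, 5.43, 6.39, 5.69 and 5.67 in TKO 1 to TKO 5. Over 10 embryos it correlated with Tubb3 at a Pearson r of 0.99 (permutation p = 1e-05, the smallest that 100000 resamples can give, adjusted 0.00037 over 37 members) and a Spearman rho of 0.96 (permutation p = 3e-05, adjusted 0.00111). Without the 2 arrays farthest from the median, WT 5 and TKO 1, r was 0.99 (exact permutation p = 0.000174, n = 8). Within the 6 females r was 0.99 (exact permutation p = 0.00278, n = 6). There were too few males for a value, and all 4 males lay at 5.43 to 5.69 on the marker mean, where WT 4 was the only female.

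Tubb2b and Tubb5 also correlated with these markers. For Tubb2b r was 0.88 (permutation p = 0.00136, adjusted 0.0218) and rho 0.66 (permutation p = 0.044, adjusted 0.271). For Tubb5 r was 0.86 (permutation p = 0.00177, adjusted 0.0218) and rho 0.77 (permutation p = 0.0124, adjusted 0.153). Without WT 5 and TKO 1 the r of Tubb2b was 0.68 (exact permutation p = 0.0671, n = 8) and that of Tubb5 0.63 (exact permutation p = 0.0947, n = 8). Both were thus positive but smaller without those 2 arrays, and not below 0.05 by the exact permutation p. Within the 6 females r was 0.92 for Tubb2b (exact permutation p = 0.0139, n = 6) and 0.99 for Tubb5 (exact permutation p = 0.00278, n = 6), with a rho of 0.89 and 1.0. Those females include WT 5 and TKO 1. No other member passed after adjustment by Pearson's r. The next smallest p-values were those of Tubgcp6 (r 0.77), Tubb2a (0.75), Ttll13 (-0.74) and Tuba1a (-0.73). Their adjusted permutation p ran from 0.0661 to 0.0904. Tuba1a, the α-tubulin gene of developing neurons, thus had a negative r, which was -0.29 without WT 5 and TKO 1. In bulk samples fewer cells of a type and less RNA per cell cannot be told apart. With the neuron marker mean as a covariate, an alternative added after the data were seen, the 6 called genes kept log2 changes within 0.01 of the values given here.

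**Figure D2:**
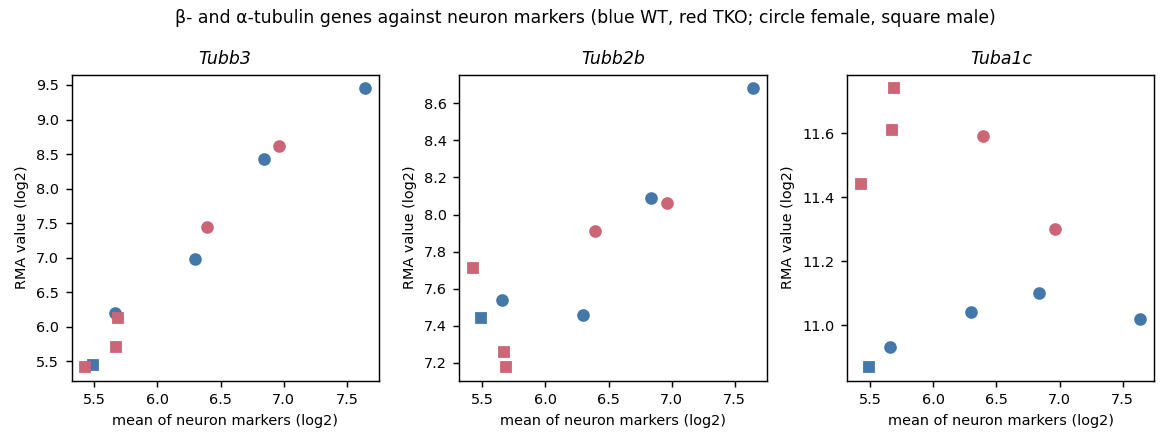
RMA values (log2) of Tubb3, Tubb2b and Tuba1c against the mean of 11 neuron markers (log2), 1 point per embryo, with WT in blue, TKO in red, circles for females and squares for males. Tubb3 rises with the markers, from 5.44 to 9.45 in WT and from 5.42 to 8.62 in TKO. Tubb2b runs from 7.44 to 8.68 in WT and from 7.18 to 8.06 in TKO, and Tuba1c separates by genotype at all marker levels.

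γ-Tubulin and its complex showed no call. Tubg1, the ubiquitous γ-tubulin, was 8.26, 8.22, 7.89, 8.19 and 8.31 in WT and 8.26, 8.00, 8.27, 8.38 and 8.19 in TKO (log2 change 0.12, SE 0.089). Tubg2, the second γ-tubulin gene, had a mean just above the filter and a log2 change of -0.42 with an interval from -0.86 to 0.02. Without WT 3 these changes were 0.02 for Tubg1 and -0.22 for Tubg2. Of the genes for the complex, Tubgcp2 and Tubgcp3 encode the core subunits that bind γ-tubulin, and Tubgcp5 and Tubgcp6 encode subunits of the full ring. Their log2 changes were -0.07, -0.04, 0.11 and -0.15, with SEs from 0.072 to 0.11 and limma adjusted p from 0.391 to 0.869. Tubgcp6 was below the lowest WT array in 4 of 5 TKO arrays.

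Both tubulins of the centriole rose. Tube1, the ε-tubulin gene, was 7.38, 7.59, 7.38, 7.35 and 7.55 in WT 1 to WT 5 and 8.01, 8.09, 7.97, 7.69 and 7.80 in TKO 1 to TKO 5. Every TKO array lay above every WT array, and the gene rose 1.42-fold (log2 change 0.51, SE 0.094, limma adjusted p = 0.00967). Tubd1, the δ-tubulin gene, was 6.52, 6.79, 6.30, 6.61 and 6.55 in WT and 6.91, 6.88, 7.05, 6.95 and 6.63 in TKO. It rose 1.34-fold (log2 change 0.42, SE 0.096, limma adjusted p = 0.0262), with 4 of 5 TKO arrays above the highest WT array. The call of Tubd1 was lost in 8 of 25 alternative settings, among them the fit without sex and the fits without WT 1, WT 3, TKO 2 or TKO 3. That of Tube1 was lost in 4, which were females only, the non-epithelial covariate, and the fits without WT 3 or TKO 3.

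**Figure D3:**
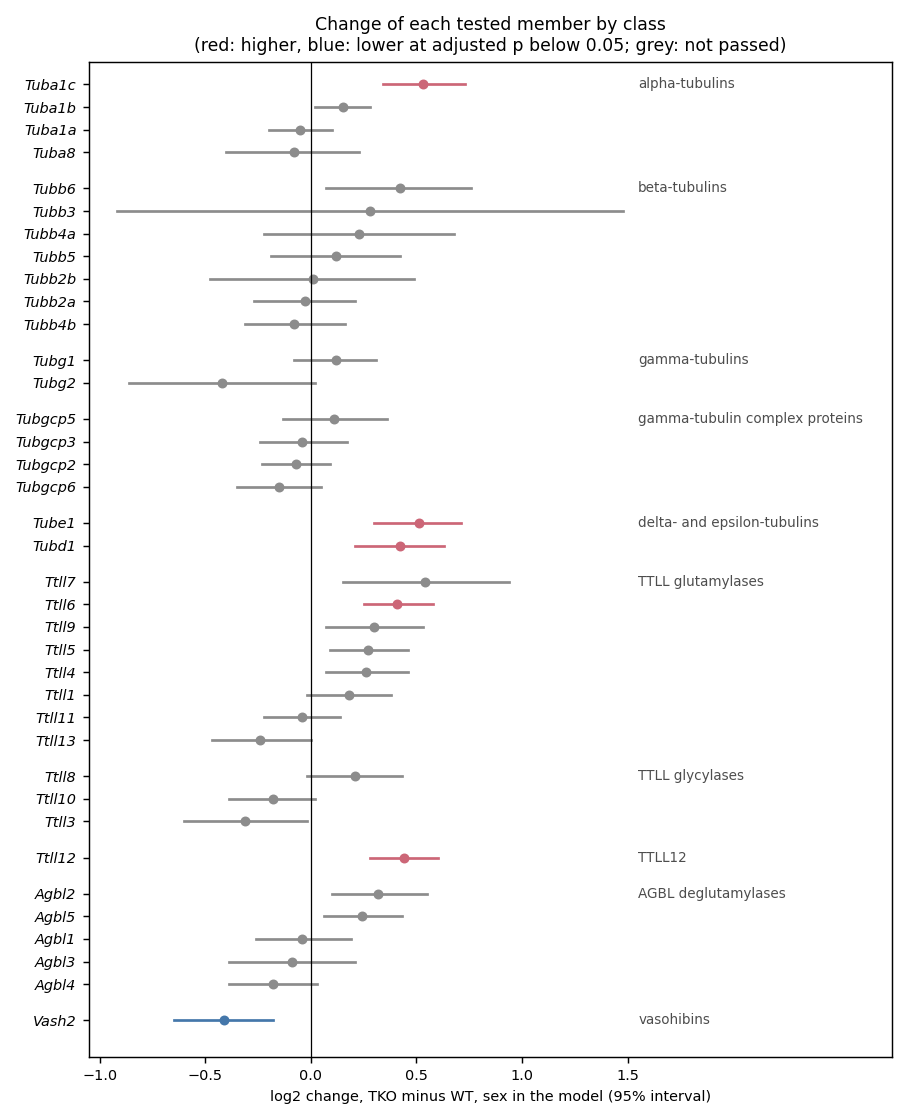
Log2 change of the 37 tested members, TKO minus WT with sex in the model, with 95% intervals, grouped by class and coloured red for higher, blue for lower and grey for not passed. The δ- and ε-tubulin genes lie above 0, 6 of 8 glutamylase genes have positive estimates, and the interval of Tubb3 is the widest.

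Among the TTLL glutamylases, 1 of 8 tested rose (12.5%, against 4.39% of all genes tested) and 7 did not pass. Their median log2 change was 0.27, and 6 of the 8 had a positive change, as had 8291 of the 16635 genes tested. Ttll6, which lengthens glutamate chains in cilia, was 9.10, 9.38, 9.20, 9.22 and 9.22 in WT and 9.57, 9.69, 9.76, 9.49 and 9.55 in TKO. Its arrays did not overlap, and it rose 1.33-fold (log2 change 0.41, SE 0.076, limma adjusted p = 0.00976). Without WT 3 its change was 0.44 (limma adjusted p = 0.0654) and without TKO 3 it was 0.36 (adjusted p = 0.0669). Ttll9, a glutamylase gene of cilia and flagella, was 7.81, 8.13, 8.09, 8.07 and 7.75 in WT and 8.21, 8.42, 8.42, 8.15 and 8.18 in TKO, without overlap. Its log2 change of 0.30 did not pass (limma adjusted p = 0.128), and a further, dimmer Ttll9 probe set overlapped between genotypes.

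Ttll4, Ttll5 and Ttll7 encode enzymes that start or extend glutamate chains on α- or β-tubulin. Ttll5 was 8.16 to 8.46 in WT and 8.41 to 8.69 in TKO (log2 change 0.27, limma adjusted p = 0.087). Ttll4 was 8.28 to 8.57 in WT and 8.53 to 8.80 in TKO (log2 change 0.26, limma adjusted p = 0.104). Ttll7 was dimmer and more spread, at 5.68, 5.35, 5.09, 4.99 and 6.0 in WT and 5.87, 5.81, 6.20, 5.63 and 5.54 in TKO, so that its log2 change of 0.54 had an SE of 0.18. The other 3 tested glutamylase genes, Ttll1, Ttll11 and Ttll13, had log2 changes from -0.24 to 0.18.

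None of the 3 glycylase genes passed. Ttll3, which starts glycine side chains, was 9.08, 9.11, 9.51, 9.34 and 8.73 in WT and 8.83, 9.0, 9.06, 8.80 and 8.82 in TKO, a log2 change of -0.31 (limma adjusted p = 0.212). WT 3 was its highest array and WT 5 its lowest. Without WT 3 the change was -0.12, and without WT 5 it was -0.39 and passed (limma adjusted p = 0.044). Ttll8, the second initiating glycylase, changed by 0.21 and Ttll10, which lengthens glycine chains, by -0.18, both with a limma adjusted p of 0.289. Without WT 3 the change of Ttll10 was -0.04. The 2 initiating enzymes thus had estimates of opposite sign, and neither passed.

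Ttll12, a divergent family member whose enzyme activity is not settled, had the smallest adjusted p of the members. It was 8.14, 8.24, 8.06, 8.02 and 8.30 in WT 1 to WT 5 and 8.58, 8.49, 8.69, 8.42 and 8.50 in TKO 1 to TKO 5. The groups did not overlap, and it rose 1.36-fold (log2 change 0.44, SE 0.074, limma adjusted p = 0.0062). Its call was lost in 2 of 25 settings, females only (adjusted p = 0.113) and the non-epithelial covariate (adjusted p = 0.117). Of the 37 members, 5 did not overlap with TKO above WT (Tuba1c, Tube1, Ttll6, Ttll9 and Ttll12), and none with TKO below. The shares over all genes tested were 5.54% and 2.07%, or 7.60% in either direction.

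The AGBL carboxypeptidase genes gave no call. Agbl2 was 8.53, 8.85, 8.78, 8.79 and 8.53 in WT and 8.95, 9.16, 9.20, 8.92 and 8.85 in TKO, with 4 of 5 TKO arrays above the highest WT array and a log2 change of 0.32 (limma adjusted p = 0.0932). Agbl5, which removes the glutamate at the branch point of a chain, was 8.47 to 8.71 in WT and 8.69 to 8.97 in TKO (log2 change 0.24, limma adjusted p = 0.117). Agbl4, which shortens long glutamate chains, and Agbl3 changed by -0.18 and -0.09, and Agbl1 by -0.04. The list thus held estimates of both signs, with a median of -0.036 that was 0.09 without WT 3.

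Vash2, a vasohibin that acts as a tubulin carboxypeptidase with the partner protein Svbp, was the only member to fall. It was 6.26, 6.03, 6.33, 6.40 and 6.27 in WT 1 to WT 5 and 5.80, 5.86, 5.82, 6.19 and 5.79 in TKO 1 to TKO 5, so that 4 of 5 TKO arrays lay below the lowest WT array. The fall was 1.33-fold (log2 change -0.41, SE 0.11, limma adjusted p = 0.0463), and the call was lost in 14 of 25 settings. In those 25 settings the log2 change stayed between -0.45 and -0.27, and the adjusted p between 0.0218 and 0.417. Svbp itself had a log2 change of -0.03 (limma adjusted p = 0.888).

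**Figure D4:**
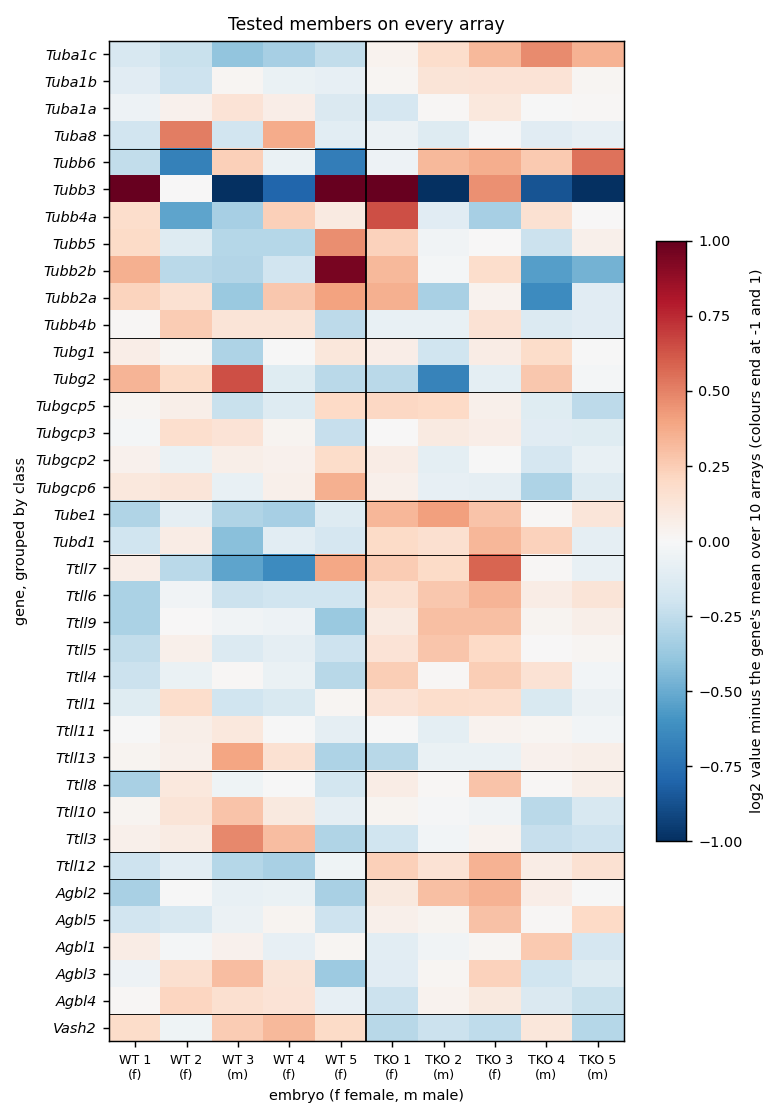
RMA values of the 37 tested members on every array, each as the log2 value minus the gene's mean over 10 arrays, with colours ending at -1 and 1 and embryos marked female (f) or male (m). Tuba1c, Tube1, Ttll6 and Ttll12 are redder on all 5 TKO arrays, while Tubb3 varies from embryo to embryo, between 5.42 and 9.45.

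The 4 members below the filter were Ttll2, an α-tubulin-like gene Tubal3, the platelet β-tubulin gene Tubb1 and a pseudogene, Tubb2a-ps2. Their arrays lay between 2.20 and 4.81 and overlapped between genotypes, and they were not tested.

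Genes that act on tubulin outside these families were read in 4 lists. None of 19 tested genes of tubulin folding, the chaperonin subunits and tubulin cofactors, passed, and their median log2 change was 0.070. None of 10 other tubulin-modifying genes passed either. Among them were Ttl, which adds back the tyrosine (0.04), Agtpbp1, a further glutamate-removing enzyme (0.30), the acetyltransferase gene Atat1 (-0.03) and the deacetylase gene Hdac6 (0.01). At an unadjusted p below 0.05, 4 of the folding list and 2 of the modifying list were higher and 0 and 1 lower, where 2199 of all 16635 genes were higher and 1284 lower. Limma was the only tool run.

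Nucleation partners of γ-tubulin held 3 increases and severing enzymes 1, where 4.39% of all genes tested rose. Of 16 tested nucleation genes 3 rose (18.8%), with a list median of 0.17. They were Pcnt, a scaffold of the pericentriolar material (8.03 ± 0.099 to 8.40 ± 0.12, log2 change 0.44, limma adjusted p = 0.00425), Cep192 (0.42) and Tpx2, a spindle assembly factor (0.43). Of 6 severing genes 1 rose (16.7%), Fignl1 (6.62 ± 0.24 to 7.17 ± 0.16, log2 change 0.66, limma adjusted p = 0.0039), and the median was 0.18. The katanin gene Katna1 and the spastin gene Spast changed by 0.20 and 0.26 on the log2 scale without passing.

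Markers of dividing cells also had positive changes. Of 13 tested markers 5 rose (38.5%, against 4.39% of all genes tested), 8 did not pass, and all 13 had a positive change. Their mean level was 7.61 to 7.98 on WT arrays and 8.11 to 8.26 on TKO arrays, without overlap. The mean of the multiciliated cell markers, at 9.78 to 9.93 in WT and 9.96 to 10.18 in TKO, was also without overlap. Tuba1c, Tube1, Ttll6 and Ttll12 did not overlap either, and in Tubd1 only TKO 5 lay within the WT range. Any genes without overlap separate the same arrays, as 5.54% of all genes tested did with TKO above WT. The part of dividing cells in the changes of Tuba1c, Tube1, Ttll6, Ttll12 and Tubd1 was not tested. Of the 12 multiciliated cell markers 4 rose (33.3%), the regulators Gmnc, Mcidas, Ccno and Myb, and 8 did not pass. Those 8 included 3 further transcription factors, Foxj1 (log2 change 0.21, limma adjusted p = 0.0784), Rfx2 (-0.29, adjusted p = 0.15) and Rfx3 (-0.02), and genes of the built cilium such as Tekt1 (0.07), Rsph1 (-0.02) and Tppp3 (-0.21).

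Promoter sequences, from 250 bases before to 50 after each start in RefSeq's GRCm38.p6 annotation, were listed for 34 of the 41 members. They were searched on both strands for the CCAAT box (CCAAT or ATTGG), the cell cycle homology region (TTTGAA or TTCAAA) and the half-site of the X-box bound by RFX factors of cilium genes (GTTGCC or GGCAAC). Of the 5 genes that rose, 2 held a CCAAT box, 0 a cell cycle homology region and 1 an X-box half-site, against 41.1%, 20.2% and 14.1% of all 27025 genes listed. The stretches that hold them in Tuba1c and Tube1 are shown with the matches in capitals. They lie at chr15:99029730-99029761 (+ strand) and chr10:39133958-39133982 (+ strand), upstream of the start.
Tuba1c: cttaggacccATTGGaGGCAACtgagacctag
Tube1: gcattacgacATTGGctacttgcgg

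The X-box half-site was listed for 9 of the 34 members (26.5%), against 14.1% of all genes listed. By a split of the members that was not planned, it was listed for 7 of 16 Ttll and Agbl genes (43.8%). Of the 18 other members, which include the enzyme gene Vash2, 2 held it (11.1%). The 7 genes were Ttll3, Ttll5, Ttll8, Ttll9, Ttll10, Agbl2 and Agbl3, and none of them passed in the comparison of genotypes. In Agbl3, at chr6:34780401-34780431 (+ strand), both orientations stand beside each other just before the start, and in Ttll10, at chr4:156050818-156050840 (- strand), 1 half-site stands there. These 2 stretches are shown as examples, with the half-sites in capitals. A match is a description of letters and not a bound site.
Agbl3: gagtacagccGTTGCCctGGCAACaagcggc
Ttll10: cctagtaacaGTTGCCtggagac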

How the data were processed

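The deposited log2 values were made by the authors with RMA in the Affymetrix Expression Console, per the labels and the submitters' processing notes. No source here names its version, level of summary or genome build. The values ran from 1.50 to 13.7, which sets the scale as log2. RMA brings arrays to a common distribution, so a shift of all genes together cannot be seen. No detection call is given here, and the number of arrays limits the precision.

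The platform's annotation gave 1 symbol to 23521 of 41345 probe sets, several to 1814 and none to 16010. Another 6 probe sets carry a tubulin-family symbol together with another gene's and were not used. Limma 3.58.1 in R 4.3.3 was fitted to 16635 genes with genotype and labelled sex, a mean-variance trend in eBayes, two-sided p-values and adjustment by Benjamini-Hochberg. Named were all members that passed or did not overlap, and up to 4 per class with the smallest p. Other genes named were picked after their values were seen. The members and lists were chosen with earlier results of these data known. The scripts were tested on simulated data, and figures were drawn with matplotlib 3.10.9. The protein sequences planned for description were not analysed here.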

Additional observations from a re-analysis of the deposited data

Results flagged for a closer look

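In 4 of 66 groups of 5 arrays read for named members, 1 array stood apart from the other 4, with a gap to its neighbour above 0.71 of the group's range. Chance marks about 1 in 20 groups in this way. Vash2 was 6.19 on TKO 4, against 5.79 to 5.86 on the other TKO arrays. Tubb4b was 7.59 on TKO 3, against 7.31 to 7.37, and Ttll8 was 6.69 on TKO 3, against 6.41 to 6.48. Tubg1 was 7.89 on WT 3, the only WT male, against 8.19 to 8.31 on the other WT arrays.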

How the results depend on the processing

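The 5 increases and 1 decrease among members, and the 916 genes called over all genes, were recomputed under 25 settings. No setting reversed any of the 6 called members. With females only 0 members were higher, 0 lower and 56 genes were called in all. With the score of non-epithelial markers in the model these were 0, 0 and 112. With the neuron marker mean as a covariate 8 members were higher. Testing all probe sets called 409 of the probe sets chosen for genes and 0 members lower. The decrease, Vash2, was also lost (0 members lower) with no filter, with a filter at the 10th percentile and with quantile normalization. Leaving out 1 array gave 1 to 6 members higher, 0 to 1 lower and 210 to 1284 genes in all, the lowest without WT 3 and the highest without WT 5, where Ttll3 fell in place of Vash2. It was 307 without TKO 3 and 552 without TKO 1. Among members that did not pass, estimates near 0 changed sign: Tuba8 to 0.09 with the mean of its probe sets, Agbl3 to 0.09, Tubb4b to 0.01 and Tubgcp3 to 0.05 with females only and without WT replicate 3, and Tuba1a to 0.01 without TKO replicate 1. Leaving out 1 array, the lowest estimates were -0.24 for Agbl3, -0.17 for Tubb4b and -0.09 for Tubgcp3. The fits with females only and without WT 3 take the genotype effect from the same embryos. The median of the AGBL genes, -0.036, was 0.09 with females only and without WT replicate 3, and 0.077 with a filter at the 50th percentile. The causes were not tested.

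Deviations of same-numbered embryos from their genotype means correlated at -0.13 to 0.38, and replicate 4 alone had its own number as best partner. The main fit did not treat the numbers as pairs, but these correlations cannot exclude a shared litter or batch. With the replicate number as a block 7 members were higher and 1 lower, Ttll5 and Agbl2 being added, and 1053 genes were called in all.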
